A study of Homo sapiens with 9 samples.

Results

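The genes described here are 10 feedback inhibitors of ERK signalling, taken by symbol from a deposited table of 40332 gene symbols: 3 dual-specificity phosphatases (DUSP4, DUSP5 and DUSP6), 3 Sprouty genes (SPRY1, SPRY2 and SPRY4), 3 SPRED genes (SPRED1, SPRED2 and SPRED3) and IL17RD. All 10 symbols were found. The RNA-seq data came from 9 libraries of wild-type H1, a human embryonic stem cell line in long use, which is 1 line throughout. In the PXGL group (n = 3) the cells were in PXGL, a naive-state medium that contains a MEK inhibitor along with inhibitors of tankyrase and protein kinase C and the cytokine LIF. In the N2B27 group (n = 3) they were in the basal medium alone, and in the inhibitor group (n = 3) they were in N2B27 with 5 µM EPZ-6438, which blocks the histone methyltransferase EZH2, for 3 days. The sources used here do not state how long the N2B27 group was kept without the additions, so the medium and the time in it cannot be told apart, and the same holds for the inhibitor and time when the inhibitor group is set against N2B27.

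ERK is the last kinase of a cascade that runs from growth factor receptors through RAS, RAF and MEK. Its activity induces transcription of its own inhibitors, so their transcripts are widely read as a record of recent ERK output. Sprouty and SPRED proteins act high in the cascade, at the level of receptor adaptors, RAS and RAF. The DUSP phosphatases remove the activating phosphates from ERK itself, and the IL17RD protein, also called SEF, acts at the membrane on FGF receptor signalling. FGF and ERK signalling is held low by MEK inhibition in naive human pluripotent cells, and it is active when such cells move towards the formative and primed states.

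Total counts were 14482105 to 18358530 per library. Core pluripotency markers were present in all 9 libraries, with POU5F1 at 1320 ± 163 CPM (CPM, the read count scaled to library size with edgeR's TMM factors, mean ± SD, n = 3) in PXGL, 1430 ± 28.9 in N2B27 and 1180 ± 14.3 with EPZ-6438. Of 11 naive markers, 6 were lower in N2B27 than in PXGL, 0 were higher and 5 did not pass (edgeR, median log2 fold change -0.50). TBX3 fell 19.7-fold, KLF4 3.8-fold and KLF5 3.04-fold, while KLF17 was at 58.0 ± 2.95 and 57.7 ± 1.91 CPM. Without PXGL replicate 1 the naive counts were 6 lower and 2 higher. The target of the inhibitor, EZH2, was transcribed at 76.6 to 79.2 CPM in PXGL, 69.3 to 75.0 in N2B27 and 79.0 to 86.2 with EPZ-6438. PXGL replicate 1 stood apart: its counts differed from those of the other PXGL libraries with a chi-square per degree of freedom of 19.6 and 26.3, against 3.41 between replicates 2 and 3. The rises of the 9 tested feedback inhibitors from PXGL to N2B27 are therefore also given without it. These are bulk samples, in which fewer cells that express a gene and less RNA of it per cell cannot be told apart.

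For SPRY1 and SPRY2, close relatives that behaved differently below, the 250 bases before an annotated RefSeq start (GRCh38.p14) that no GENCODE 29 exon of the gene overlaps are shown 5′ to 3′ on the strand of the gene, to give the regulatory sequence next to the values. The SPRY1 window is chr4:123396545-123396794 on the plus strand, and the SPRY2 window is chr13:80341127-80341376 on the minus strand. Both genes have further annotated starts. Capitals mark the ETS core CCGGAA, the only one of the motifs searched that was found in these windows.
SPRY1: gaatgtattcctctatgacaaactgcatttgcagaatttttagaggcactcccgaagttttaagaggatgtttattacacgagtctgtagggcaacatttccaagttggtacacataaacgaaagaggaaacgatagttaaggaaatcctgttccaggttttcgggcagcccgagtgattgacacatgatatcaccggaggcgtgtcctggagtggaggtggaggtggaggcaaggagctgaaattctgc
SPRY2: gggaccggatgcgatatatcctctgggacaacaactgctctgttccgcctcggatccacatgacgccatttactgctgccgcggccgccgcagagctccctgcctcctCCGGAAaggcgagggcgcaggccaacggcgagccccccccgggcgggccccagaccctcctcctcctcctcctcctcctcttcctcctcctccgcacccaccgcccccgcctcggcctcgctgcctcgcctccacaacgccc
The SPRY1 window is 45.6% G and C and the SPRY2 window 70.4%, against a median of 58.0% over all annotated windows of this length. The other SPRY1 window is at 68.0%. The other SPRY2 windows, which no exon overlaps either, are at 62.4% and 41.2%. The contrast between the windows shown therefore depends on which starts are taken. Of the 10 genes, 8 matched an entry of the RefSeq table, with 14 windows in all. Searched on both strands were some of the octamers bound by the ERK-controlled repressor CIC (TGAATGAA, TCAATGAA and TGAATGGA). Other octamers that CIC may bind were not searched, so a window without a match, that of DUSP6 included, may still hold a CIC site. Also searched were an extended ETS site (CCGGAAGT), cAMP response elements (TGACGTCA and TGACGCAA) and AP-1 (TGACTCA). The ETS core CCGGAA, which lies inside CCGGAAGT, was added after the extended ETS site gave no match. The core was found in 1 window of SPRY2 and 1 of SPRY1 (a second start, not shown), and in 14.5% of all 35116 windows. The remaining matches of the motifs searched were a TGAATGAA and a TGACTCA in 1 window of SPRED3, held by 1.4% and 4.2% of all windows. These are matches of letters only, and no binding was measured.

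N2B27 against PXGL compares cells without and with the MEK inhibitor and the other additions. Each of the 10 genes had a higher range in N2B27 than in PXGL, with no overlap between the 3 libraries of either group. Of the 15179 genes tested, 29.4% had a higher, non-overlapping range in N2B27 and 60.8% a non-overlapping range in either direction. The expression filter admitted 9 of the 10, and all 9 of these were called higher (adjusted p under 0.05 in edgeR's quasi-likelihood test, with Benjamini-Hochberg adjustment over all genes tested), against 27.3% of all genes called higher, 28.7% called lower and 56% called either way. DUSP4, DUSP6 and SPRY4 reached the filter level only outside PXGL, so their presence among the genes tested already required a difference. The other 6 also reached it in every PXGL library. Over 2-fold, 8 members were higher, against 8.30% of all genes. Summed over the 10 genes, the level was 55.6 to 65.8 CPM in the PXGL libraries and 589 to 606 CPM in the N2B27 libraries.

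Among the phosphatases, DUSP4, an inducible nuclear enzyme (chromosome 8, 29333064 to 29350668, minus strand, hg38), had 0 counts in each of the 3 PXGL libraries, which allows up to 0.0550 CPM over the group at a floor of 3 counts. The N2B27 libraries had 913, 895 and 922 counts of DUSP4, or 63.6, 62.9 and 61.5 CPM. Against the floor DUSP4 was at least 1138-fold higher in N2B27 (adjusted p = 3.94e-15, edgeR), or at least 757-fold without PXGL replicate 1, where the floor stands for fewer reads. The gene thus went from no count to a level that varied little between the libraries.

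DUSP5, a nuclear phosphatase with preference for ERK (chromosome 10, 110497838 to 110511544, plus strand), was detected in PXGL, at 2.30, 1.26 and 1.28 CPM. In N2B27 it was at 41.1, 42.1 and 39.7 CPM. The rise was 25.2-fold (log2 4.66, SE 0.16, adjusted p = 4.97e-13, edgeR), or 5.00 on the log2 scale without PXGL replicate 1, the library with the most DUSP5 in that group.

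DUSP6, a cytoplasmic phosphatase with preference for ERK and a common readout of FGF signalling (chromosome 12, 89347232 to 89353271, minus strand), had low counts throughout. PXGL libraries held 0, 4 and 6 counts and N2B27 libraries 74, 50 and 71, or 5.15, 3.52 and 4.74 CPM. The groups did not overlap, and DUSP6 rose 23.4-fold (log2 4.55, SE 0.45, adjusted p = 2.88e-07, edgeR). With so few PXGL counts the size of the change depended on single libraries: it was 3.98 on the log2 scale without PXGL replicate 1 and 5.25 without PXGL replicate 3. DUSP6 was also the only member with deposited values that were not whole, in 5 of 9 libraries. RefSeq annotates a read-through gene, POC1B-DUSP6 (89348065 to 89526047), across most of DUSP6, and GENCODE 29 an antisense gene over its 5′ part. Neither was analysed here, so the share of DUSP6 reads assigned elsewhere is not known and its level is uncertain.

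Among the Sprouty genes, SPRY4 (chromosome 5, 142310427 to 142326455, minus strand) went from 1, 0 and 0 counts in PXGL to 2058, 1946 and 2036 counts in N2B27, or 143, 137 and 136 CPM. The ratio of counts was 7550, with a counting interval of 1360 to 298400 that rests on the single PXGL count (adjusted p = 4.91e-17, edgeR). That count came from PXGL replicate 1, and without this library SPRY4 was at least 1675-fold higher in N2B27. The antisense gene SPRY4-AS1 overlaps SPRY4 and had 0 counts over the PXGL group and 9 over the N2B27 group, so its row held few reads beside those of SPRY4.

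SPRY2 (chromosome 13, 80335976 to 80340951, minus strand), an inhibitor of receptor tyrosine kinase signalling, was present in PXGL at 6.86, 5.37 and 5.50 CPM and reached 60.6, 64.2 and 63.1 CPM in N2B27. The rise was 10.6-fold (log2 3.40, SE 0.10, adjusted p = 8.86e-14, edgeR), or 3.53 on the log2 scale without PXGL replicate 1.

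SPRY1 (chromosome 4, 123396795 to 123403760, plus strand) moved least. It had 10.1, 9.59 and 9.11 CPM in PXGL and 13.7, 17.0 and 10.3 CPM in N2B27, and the lowest N2B27 library lay just above the highest PXGL library. The rise of 1.42-fold (log2 0.51, SE 0.17) passed the test at adjusted p = 0.0164 (edgeR), but the call ended without N2B27 replicate 2 (log2 0.32, adjusted p = 0.135) and when a change of more than 1.5-fold was required (adjusted p = 0.996). Without PXGL replicate 1 the rise was 0.55 on the log2 scale and passed. SPRY1 was thus readily detected under MEK inhibition, where SPRY4 was at its floor.

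**Figure D1:**
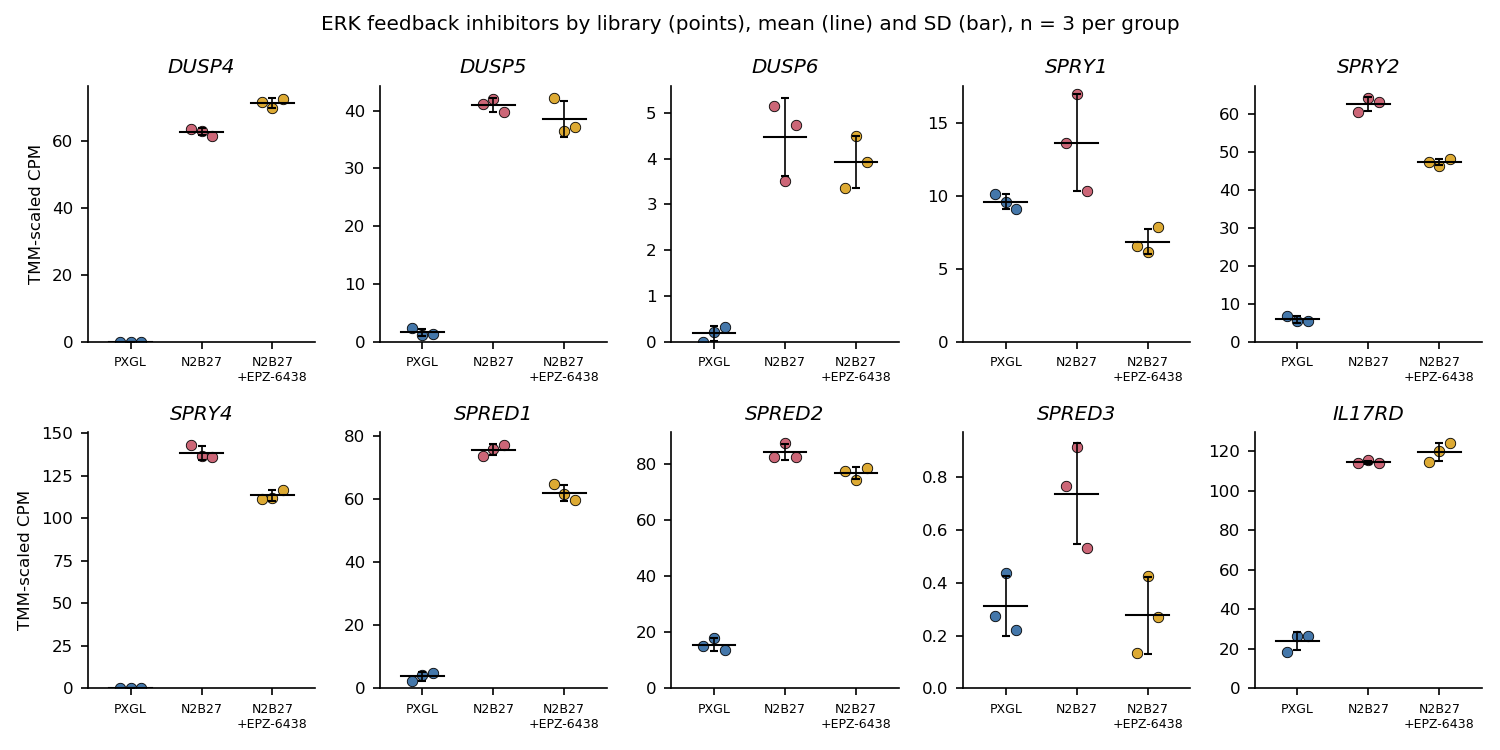
Level of each feedback inhibitor in TMM-scaled CPM (vertical axes, each from 0 with its own scale) in the 3 culture groups; points are libraries, lines the means and bars the SD (n = 3). DUSP4 and SPRY4 sit at or near 0 in PXGL and SPRY4 at 136 to 143 CPM in N2B27, while SPRY1 spreads from 10.3 to 17.0 CPM in N2B27 and lies at 6.20 to 7.86 CPM with EPZ-6438.

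SPRED1, which brings the RAS inhibitor neurofibromin to the membrane (chromosome 15, 38252326 to 38357249, plus strand), was at 2.30, 4.11 and 4.89 CPM in PXGL and at 73.7, 76.0 and 77.2 CPM in N2B27. It rose 20.1-fold (log2 4.33, SE 0.15, adjusted p = 6.52e-13, edgeR), or 4.07 on the log2 scale without PXGL replicate 1, the lowest library. SPRED2, a relative of SPRED1 with the same domain order (chromosome 2, 65310851 to 65432637, minus strand), was at 15.2, 18.1 and 13.5 CPM in PXGL and reached 82.7, 87.6 and 82.5 CPM in N2B27. Its rise was 5.39-fold (log2 2.43, SE 0.09, adjusted p = 1.99e-12, edgeR), or 2.41 on the log2 scale without PXGL replicate 1. Both genes had groups that lay far apart, and the fold change was larger for SPRED1 than for SPRED2.

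SPRED3, the third gene of the family (chromosome 19, 38388421 to 38399587, plus strand), had 5, 8 and 4 counts in PXGL and 11, 13 and 8 in N2B27. It lay below the expression filter. The count ratio was 2.35 with a counting interval of 1.27 to 4.52, which covers counting error only. With no low-count filter SPRED3 was tested and not called (log2 1.23, adjusted p = 0.187, edgeR).

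IL17RD (chromosome 3, 57089982 to 57170306, minus strand) was detected in PXGL at 18.5, 26.7 and 26.4 CPM, with replicate 1 the lowest. In N2B27 it was at 114, 115 and 114 CPM. The rise was 4.80-fold (log2 2.26, SE 0.10, adjusted p = 1.96e-11, edgeR), or 2.11 on the log2 scale without PXGL replicate 1.

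Levels of different genes can be compared only per length, so CPM were divided by the length of merged exons in kb. In PXGL the order was led by SPRED2 at 3.03 ± 0.451 CPM per kb, IL17RD at 2.49 ± 0.486, SPRY1 at 2.43 ± 0.131 and SPRY2 at 1.94 ± 0.271 (SD, n = 3), and the ranges of IL17RD overlapped with those of each of these neighbours. These 4 genes made up 27.4%, 22.5%, 22% and 17.5% of the sum over the 10 genes. DUSP5 and SPRED1 followed at 0.617 ± 0.229 and 0.456 ± 0.160 CPM per kb, also with overlapping ranges, and SPRED3, DUSP6, SPRY4 and DUSP4 were all under 0.10. In N2B27 SPRY4 led at 21.1 ± 0.620 CPM per kb with SPRY2 at 20.6 ± 0.598, a pair whose ranges overlapped, followed by SPRED2 at 16.4 ± 0.561 and DUSP5 at 15.7 ± 0.456, whose ranges overlapped as well. IL17RD, SPRED1 and DUSP4 were at 12.0 ± 0.0797, 9.16 ± 0.214 and 8.63 ± 0.147 CPM per kb. SPRY1 came eighth at 3.45 ± 0.843 CPM per kb, or 3.19% of the sum. DUSP6 and SPRED3 were lowest, at 0.965 ± 0.184 and 0.126 ± 0.0327. With EPZ-6438 SPRY4 was at 17.3 ± 0.460, SPRY2 at 15.6 ± 0.266 and SPRED2 at 14.9 ± 0.418 CPM per kb, and DUSP4 (9.81 ± 0.202) stood above SPRED1 (7.51 ± 0.304). Several of these places depend on the length used. With the longest transcript SPRY1 was at 3.69 CPM per kb in PXGL, above IL17RD at 2.73, and at 5.24 in N2B27 and 2.64 with EPZ-6438. By that length DUSP4 (11.3) was above SPRED1 (9.72) already in N2B27, and SPRED2 (18.8) was above SPRY2 (17.5) with EPZ-6438.

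**Figure D2:**
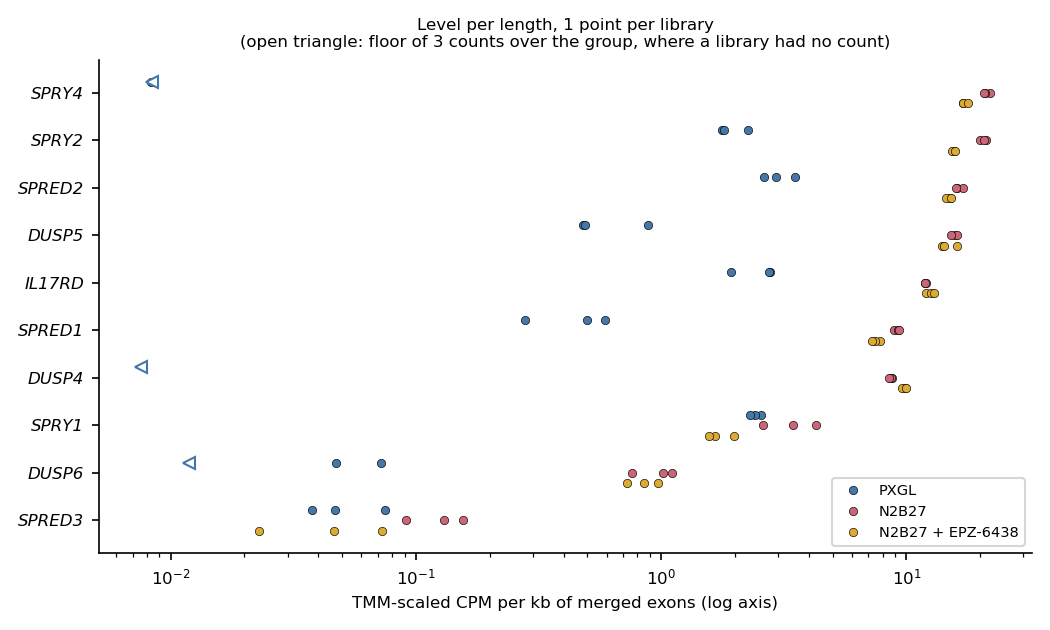
Level per length of each gene (horizontal log axis, TMM-scaled CPM per kb of merged exons), 1 point per library and 1 colour per group, ordered by the N2B27 mean; open triangles mark the floor of 3 counts over the group where a library had no count. SPRY4, at the top with 21.1 CPM per kb in N2B27, lies at the floor in PXGL, whereas the 3 groups of SPRY1 lie close together between 1.57 and 4.29 CPM per kb.

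The inhibitor group against N2B27 compares cells with and without EZH2 inhibition in the basal medium, and it shares the N2B27 libraries with the comparison above. No feedback inhibitor rose and 3 fell, all Sprouty genes. Of the 9 tested, 3 were called lower and 6 did not pass, against 10.6% of all 15179 genes called lower, 14.2% called higher and 24.7% called either way. The median log2 fold change was -0.18 over the 9 and 0.01 over all genes tested. Ranges did not overlap for 7 of the 10 genes, 6 lower and 1 higher, against 22.6% and 23.9% of the genes tested and 46.4% in either direction. The 6 include SPRED3, which had few counts and was not among the genes tested.

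SPRY1 fell most. It had 6.57, 6.20 and 7.86 CPM with EPZ-6438, below each of the N2B27 libraries, and dropped 1.99-fold (log2 -0.99, SE 0.17, adjusted p = 0.000487, edgeR). The N2B27 libraries were widely spread for this gene, and the log2 change was -0.80 without N2B27 replicate 2, the highest, and still passed. SPRY2 went to 47.4, 46.5 and 48.1 CPM and fell 1.32-fold (log2 -0.40, SE 0.08, adjusted p = 0.00184, edgeR). SPRY4 went to 111, 112 and 117 CPM and fell 1.22-fold (log2 -0.29, SE 0.07, adjusted p = 0.00566, edgeR). None of the 3 passed when the test required a change of more than 1.5-fold, at adjusted p = 0.0761 for SPRY1 and 1 for SPRY2 and SPRY4.

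SPRED1 was at 64.7, 61.5 and 59.8 CPM with EPZ-6438, below the N2B27 range, a difference of -0.29 on the log2 scale (SE 0.11, adjusted p = 0.0775, edgeR), equal in size to that of SPRY4. It passed in 4 alternatives: in DESeq2's test (adjusted p = 0.0339), with no low-count filter (0.0278), with only these 2 groups fitted (9.04e-05) and without PXGL replicate 1 (0.000239), an alternative added once the data had been seen. SPRED2 was at 77.6, 74.4 and 78.6 CPM, also below the N2B27 range (log2 -0.13, 95% interval -0.31 to 0.05, adjusted p = 0.276). SPRED3 had 2, 7 and 4 counts and was not tested, with a count ratio of 0.384 and a counting interval of 0.185 to 0.752.

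The phosphatases did not pass. DUSP4 was at 71.4, 69.6 and 72.5 CPM with the inhibitor, above the N2B27 range, and was the one member with a higher, non-overlapping range (log2 0.18, SE 0.08, adjusted p = 0.0913, edgeR). It passed with only these 2 groups fitted (adjusted p = 0.0108) and without PXGL replicate 1 (0.0211). DUSP5 was at 42.2, 36.4 and 37.2 CPM, which overlapped the N2B27 range (log2 -0.08, 95% interval -0.32 to 0.15). DUSP6 was at 3.35, 4.50 and 3.93 CPM (log2 -0.18, 95% interval -0.82 to 0.46), and its ranges overlapped. IL17RD was at 115, 120 and 124 CPM, and its difference lay between -0.14 and 0.26 on the log2 scale (95% interval).

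**Figure D3:**
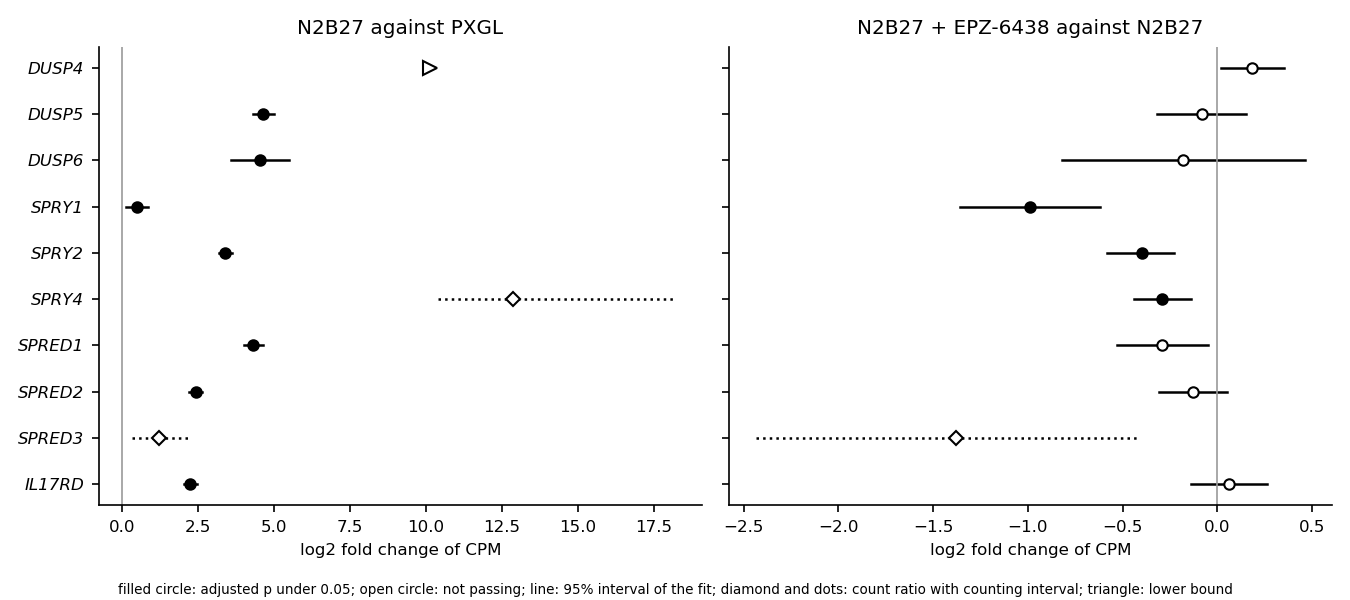
Log2 fold change of each gene (horizontal axis) for N2B27 against PXGL and for N2B27 with EPZ-6438 against N2B27, which have different scales; circles are fitted values with 95% intervals (filled where adjusted p is under 0.05), diamonds are count ratios with counting intervals, and the triangle is the lower bound for DUSP4. All values on the left lie above 0, with SPRY1 at 0.51, and on the right the 3 filled points are SPRY1 at -0.99, SPRY2 at -0.40 and SPRY4 at -0.29.

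Set directly against PXGL, the inhibitor group had 8 of the 9 tested genes called higher and 1 called lower, against 28.1% and 28% of all genes tested, and 56.1% called either way. As above, DUSP4, DUSP6 and SPRY4 reached the filter level only outside PXGL, so their presence among the genes tested already required a difference. This comparison shares its libraries with both others. DUSP4 was at least 1292-fold higher than the floor in PXGL, SPRY2 was 8-fold and SPRED1 16.5-fold higher, and IL17RD 5.01-fold higher. SPRY1 was the 1 gene called lower, at 6.88 ± 0.872 against 9.61 ± 0.520 CPM (log2 -0.48, SE 0.18, adjusted p = 0.0274, edgeR). Across the 3 groups its order was N2B27, PXGL and inhibitor group from high to low. The lower call against PXGL ended without PXGL replicate 2, or without replicate 1 or 2 of the inhibitor group (adjusted p = 0.0540, 0.0807 and 0.106), and when a change of more than 1.5-fold was required (adjusted p = 1). Without PXGL replicate 1, 8 members were still called higher and SPRY1 lower, with log2 differences of 3.12 for SPRY2, 3.78 for SPRED1, 2.17 for IL17RD and -0.45 for SPRY1, and DUSP4 was at least 860.0-fold higher. For DUSP4, DUSP5, DUSP6, SPRED1, SPRED2 and IL17RD, the groups with and without EPZ-6438 did not pass the test between them and both were called higher than PXGL. Of these genes, DUSP4 and SPRED1 passed between the groups in the alternatives given above.

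Other genes of the pathway were counted in 5 lists, beside 27.3% of all genes tested called higher and 28.7% lower in N2B27 against PXGL. In N2B27 against PXGL, transcription factors and early genes induced by ERK rose in 13 of 14 tested cases, and JUNB, named after its value was seen, fell 1.91-fold (median log2 fold change 1.95, against -0.03 over all genes tested). PHLDA1, an early response gene, rose 17.5-fold to 118 ± 3.06 CPM, and the ETS factors ETV4 and ETV1 rose 8.79-fold to 161 ± 9.23 CPM and 15.7-fold to 69.6 ± 5.28 CPM. Of 10 genes listed as FGF ligands and receptors 7 rose, 2 fell and 1 did not pass (median 0.59). Among those that rose was FGF13 (1.31-fold), an intracellular member of the family and not a receptor ligand. The ligand gene FGF2 reached 340.0 ± 2.97 CPM from 22.5 ± 0.879, the receptor gene FGFR1 rose 3.47-fold to 146 ± 0.325 CPM, and FGF4, a ligand gene of naive and early pluripotent cells, fell 2.29-fold to 101 ± 0.794 CPM.

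The remaining lists moved both ways, as did all genes tested (27.3% called higher and 28.7% lower). Of the other MAP kinase phosphatases, 6 of 7 were tested, and 2 rose, 2 fell and 2 did not pass. DUSP16, which acts mainly on JNK and p38, fell 1.82-fold from 286 ± 32.8 to 158 ± 6.18 CPM and DUSP9, an ERK phosphatase, fell 2.38-fold from 11.2 ± 1.03 to 4.69 ± 0.717 CPM, whereas DUSP7 rose 1.38-fold. Of 14 other inhibitors of RAS and ERK signalling 4 rose, 4 fell and 6 did not pass (median 0.17). The receptor inhibitor gene ERRFI1 rose 3.15-fold to 132 ± 3.98 CPM and RASAL2, a RAS GTPase activating protein, 1.59-fold, while LZTR1, an adaptor for RAS degradation, fell 1.46-fold. Of 23 genes of the cascade itself 5 rose, 10 fell and 8 did not pass (median 0.04). The adaptor genes GAB1 and GRB2 fell 1.93-fold and 1.43-fold, and the ERK-activated kinase gene RPS6KA1 fell 1.53-fold. Without PXGL replicate 1 the ERK-induced and FGF counts were the same, and 7 cascade genes rose and 11 fell, with a median of -0.23.

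With EPZ-6438 against N2B27, 4 of 14 ERK-induced genes rose, 3 fell and 7 did not pass, or 6, 4 and 4 without PXGL replicate 1 (median 0.25, against 0.01 over all genes tested). Of all genes tested, 14.2% were called higher and 10.6% lower. ETV4 fell 1.64-fold to 98.3 ± 5.98 CPM and ETV1 1.57-fold to 44.4 ± 3.25 CPM, and the cyclin gene CCND1 rose 1.25-fold to 335 ± 10.3 CPM. The third gene that fell was also an ETS factor, ETV5, at 19.1 ± 0.678 against 30.6 ± 3.55 CPM, named after its value was seen. Among genes listed as FGF ligands and receptors 2 rose, 4 fell and 4 did not pass (3, 6 and 1 without PXGL replicate 1). FGF13, not a receptor ligand, was 1 of the 2 that rose (1.27-fold). FGF4 fell 2.05-fold, FGF2 1.74-fold to 196 ± 3.51 CPM and the receptor gene FGFR4 1.56-fold to 84.6 ± 3.05 CPM. No other MAP kinase phosphatase passed in either direction, and 1 of the 6 rose without PXGL replicate 1. Of the other inhibitors 1 rose (4 without PXGL replicate 1), the ubiquitin ligase gene CBLB by 1.33-fold, and 1 fell, ERRFI1 by 1.15-fold. In the cascade BRAF rose 1.48-fold and 3 genes fell (3 rose and 6 fell without PXGL replicate 1), among them RPS6KA1 by 1.30-fold and the MEK1 gene MAP2K1 by 1.2-fold. Of the 4 core genes of PRC2, the complex that holds EZH2, EED rose 1.4-fold and EZH2 1.15-fold, SUZ12 fell 1.16-fold and EZH1 did not pass.

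**Figure D4:**
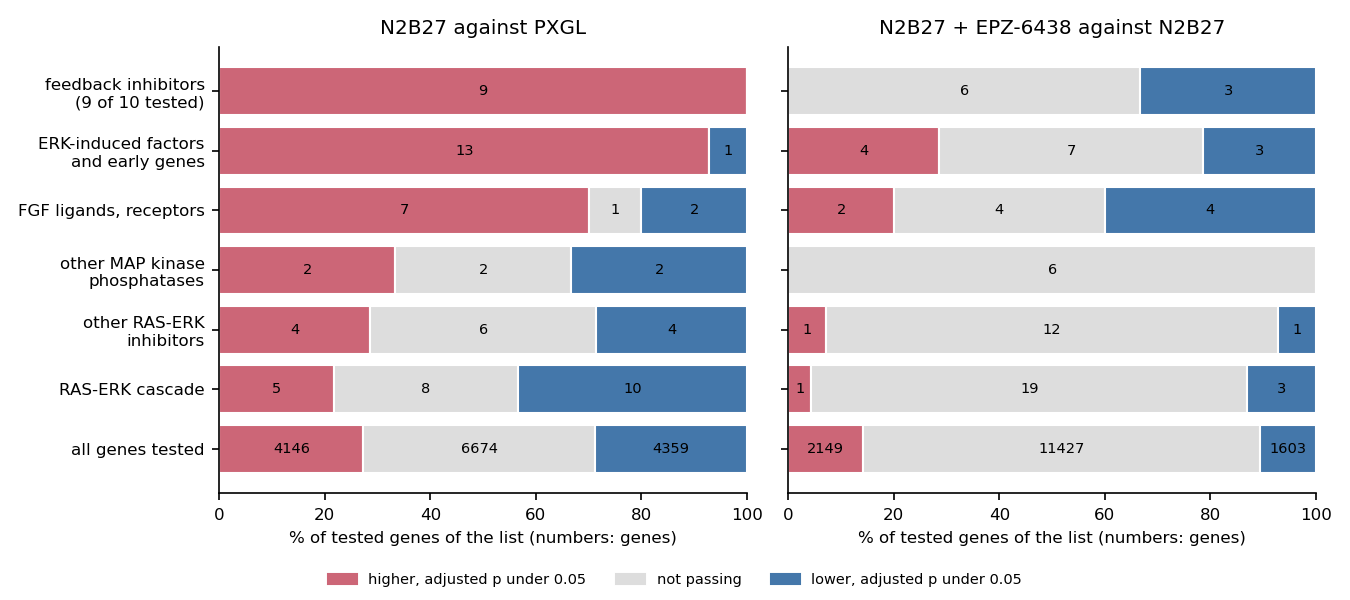
Share of the tested genes of each list (horizontal axis, per cent; numbers inside the bars are genes) called higher, called lower or not passing at adjusted p under 0.05, for N2B27 against PXGL and for N2B27 with EPZ-6438 against N2B27, with all 15179 genes tested as the last bar. On the left the feedback inhibitors (9 of 9) and ERK-induced genes (13 of 14) are nearly all higher while the cascade is split (5 higher, 10 lower), and on the right the feedback inhibitors show 3 lower and none higher.

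Over the 9 libraries, the protein-coding genes with the profile nearest to that of DUSP6, by root mean square distance of centred log2 CPM among 13520 genes, were LRRN1 (0.22), NHSL2 (0.27), KIF1A (0.29) and GLI2 (0.38). LRRN1 was at 2.46, 37.0 and 32.7 CPM on average in PXGL, N2B27 and with EPZ-6438. For SPRY4 the nearest were PTPRZ1 (0.63), NRK (0.64), SFRP2 (1.23) and THBS1 (1.44). NRK went from 0.459 CPM in PXGL to 208 in N2B27 and 235 with EPZ-6438, whereas SPRY4 was at 139 CPM in N2B27 and 113 with EPZ-6438. A prior count of 2 was added before the log was taken. DUSP6 and SPRY4 had few counts in PXGL, so their distances depend on that added count. All values share these 9 libraries, and the likeness is a description.

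Markers of cell state and of other cell types moved with the groups as well. The 10 primed markers summed to 381 to 444 CPM per library in PXGL, 1550 to 1580 in N2B27 and 636 to 692 with EPZ-6438, and the 11 naive markers to 3390 to 3990, 2650 to 2670 and 2790 to 2860 CPM. From PXGL to N2B27, 9 primed markers rose and OTX2 fell 1.4-fold. With EPZ-6438 against N2B27, 8 primed markers fell, DNMT3B from 910 to 333 CPM, while ZIC2 rose 2.34-fold and OTX2 1.48-fold. Of the naive markers 6 rose, DNMT3L and SUSD2 among them, and 2 did not pass. The 3 that fell were KHDC3L, DPPA5 and DPPA3. Of 8 fibroblast markers 5 had a count in N2B27, with DCN, LUM and COL3A1 at 0, 6 in PXGL and 7 with EPZ-6438, and their sum was 14.8 to 20 CPM in PXGL, 165 to 180 in N2B27 and 85.9 to 90.3 with EPZ-6438. The largest part in N2B27 was THY1, also a marker of primed stem cells, at 118 ± 8.40 CPM. The 7 mesendoderm markers summed to 10.5 to 12.5, 23.6 to 27.9 and 154 to 165 CPM, with GSC and EVX1 at 0 in PXGL. The 13 hypoblast markers summed to 220 to 280, 390 to 402 and 651 to 672 CPM, with APOA1 at 0 throughout. Of the 8 tested from PXGL to N2B27, 5 rose, 2 fell and 1 did not pass. The matrix genes COL4A1, COL4A2 and LAMB1 rose, to 85.6, 69.0 and 212 CPM. GATA4 rose 1.84-fold to 14 CPM and GATA6 2.32-fold to 0.731 CPM. HNF4A fell 3.53-fold to 8.3 CPM, BMP2 fell 21.5-fold to 0.251 CPM and PDGFRA did not pass. The 9 trophectoderm markers summed to 221 to 259, 932 to 938 and 1090 to 1120 CPM, with VGLL1 and CGA at 0 in every library. KRT18 made up most of the difference between PXGL (137 ± 23.8 CPM) and N2B27 (842 ± 5.08 CPM), while TFAP2A fell from 2.74 to 0.163, CDX2 from 0.531 to 0.0457 and GATA3 from 3.27 to 2.04 CPM. Of the 7 tested 2 rose, 3 fell and 2 did not pass (median log2 -0.10). The 6 neuroectoderm markers summed to 142 to 175, 292 to 325 and 340 to 364 CPM, with OTX1 at 0 in N2B27. Of these NES rose from 159 ± 17.2 to 307 ± 16.2 CPM between PXGL and N2B27, and ZIC1 fell 1.76-fold. The part of these changes in the levels of the feedback inhibitors was not tested.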

How the data were processed

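Expected counts per gene symbol, of which a share are not whole, were deposited by the authors in 1 table. Trim Galore, STAR 2.7.6a, DESeq2 and the build hg38 are named, per the submitters' processing notes, with no role. The sources used here do not state the counting program, annotation or strandedness, and reads of overlapping and antisense genes cannot be told apart. The labels name both polyA RNA and ribosomal RNA depletion, and which holds was not settled. Values were rounded to whole numbers. Genes were kept by filterByExpr (minimum count 10), which left 15179 of 22640 genes with a count. All 9 libraries were fitted together by group with edgeR 4.0.16 (in R 4.3.3, with TMM factors and a robust quasi-likelihood fit), and p-values were adjusted by Benjamini-Hochberg over all genes tested. SE is the log2 fold change divided by the root of the F statistic, and intervals are at 95%. Floors are 3 counts over a group and count intervals are exact (Clopper-Pearson, converted to a ratio). Both reflect counting error alone, since reads without molecular identifiers are not independent molecules. 3 counts were worth 0.164 to 0.211 CPM per library. The fit was tested on simulated data in which every gene had the same spread and no library stood apart. That test did not cover a library such as PXGL replicate 1, nor changes as small as those of SPRY2 and SPRY4 with EPZ-6438.

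Whether replicates came from separate cultures is not stated, and p-values then reflect only how far these libraries vary, a spread that may be technical. All pairs of replicates differed by more than sampling noise, with a chi-square of at least 2.57 per degree of freedom. Coordinates and exon lengths are from GENCODE 29 on the same assembly. The genes, lists and tests were chosen with earlier results of these data known. Named were all 10 members, EZH2, up to 3 called genes with the smallest adjusted p of each pathway list in the first and second comparison, and the 4 nearest profiles to DUSP6 and to SPRY4. Alternatives were DESeq2 1.42.0 and its size factors, other low-count filters, a fit of 2 groups, a replicate block, a 1.5-fold threshold and another gene length. Each library of the groups compared was also left out in turn. For the inhibitor group against N2B27, PXGL replicate 1 was left out too, but not the other PXGL libraries.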

Additional observations from a re-analysis of the deposited data

How the results depend on the processing

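In N2B27 against PXGL, 8 to 9 of the feedback inhibitors were called on leaving out single libraries of the groups compared, and 9 with the replicate block. Of all genes, 49.3% to 61.2% were called on leaving out those libraries and 56% with the block. In the inhibitor group against N2B27 the 3 calls became 5 (4 lower and 1 higher) with only these 2 groups fitted, where 5641 of all genes were called in place of 3752, and 0 with a threshold of 1.5-fold, where 724 were called. Leaving out 1 library gave 3 to 5 calls. The 3 came without any single N2B27 or inhibitor library, where 17.8% to 18.4% of all genes were called. The 5 came without PXGL replicate 1, where 5770 of all genes (37.2%) were called. Against PXGL directly, leaving out 1 library gave 8 to 9, where 49.1% to 60.9% of all genes were called. With the replicate block the counts were 3 for the inhibitor against N2B27 and 9 for the inhibitor against PXGL, and no call of a member changed. Of all genes, 24.3% and 55.9% were called in these fits. Same-numbered libraries did not deviate together (correlations -0.03 to 0.04 over genes, the best match being the library's own number in 3 of 9 cases), so the numbers were not taken to pair them. With the longest transcript as length, SPRED2 in PXGL was at 3.81, SPRY4 in N2B27 at 25.9 and SPRY4 with EPZ-6438 at 21.2 CPM per kb. Leaving out 1 library gave 2.79 to 3.23, 20.8 to 21.3 and 17.0 to 17.4. No called change of a member reversed under these alternatives. The 1.5-fold threshold left 8 members called in each comparison against PXGL. It left 19.5% of all genes called for N2B27 and 19.3% for the inhibitor group. DUSP6 and SPRED3 had the fewest counts, 195 and 32 over the N2B27 group.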
